A study of Mus musculus with 8 samples.

Results

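The chitinase-like proteins and the genes of alternative macrophage activation were followed in mouse ear skin treated with MC903 as a list of 8 genes, taken by symbol from the 41388 gene identifiers counted in each library: Chil4, Chil3, Chil1, Arg1, Alox15, Mrc1, Cd209e and Retnla. All 8 had counts in every library and all 8 passed the filter on low counts. RNA of bulk ear skin was sequenced in 4 MC903 libraries and 4 vehicle libraries, with 4 mice in each group. Every animal was an adult wild-type (WT) mouse of the strain C57Bl/6, so the groups shared genotype and strain. MC903 is calcipotriol, a vitamin D analog, and was put on the skin at 1 nmol each day over 12 days, while the vehicle mice received ethanol (EtOH). The treatment is a widely used mouse model of atopic dermatitis-like, itchy skin inflammation.

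Macrophages exposed to the type 2 cytokines interleukin 4 and interleukin 13 enter a state known as alternative activation. Both cytokines signal through a receptor chain encoded by Il4ra and through the transcription factor STAT6, and in the mouse they induce arginase 1, resistin-like alpha, chitinase-like proteins and the mannose receptor. Chitinase-like proteins resemble the enzymes that cut chitin but have lost that activity, and they are secreted by macrophages, neutrophils and epithelia in allergic and parasitic inflammation.

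Library totals were 12310466 to 15575518 counts in MC903 ears and 14223908 to 16837221 counts in vehicle ears, with 22205 to 23092 genes detected per library. Of 16105 genes tested with edgeR's quasi-likelihood test, 6682 passed a Benjamini-Hochberg adjusted p of 0.05 (41.5%), 3423 of them higher (21.3%) and 3259 lower (20.2%) in MC903 ears, and the median log2 fold change over all genes tested was -0.03. Vehicle replicate 2 stood apart: 7 salivary gland genes took 4.99% of its counts and 0.00582% to 0.0133% of the counts of each other library. Values that rest on that library are given below with and without it. In whole ear tissue, more cells of a type and more RNA per cell cannot be told apart. The p-values measure the spread between these libraries.

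Of the 8 genes, 7 were higher in MC903 ears and 0 were lower, against 21.3% and 20.2% of all genes tested. In each of those 7 genes the lowest MC903 library lay above the highest vehicle library, a separation in that direction seen in 19.8% of all genes tested. The median log2 fold change of the 8 genes was 2.67. Chil4 and Arg1 had the largest log2 fold changes, above a value of 4 that 0.832% of all genes tested passed, and Retnla was the gene that did not pass.

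**Figure D1:**
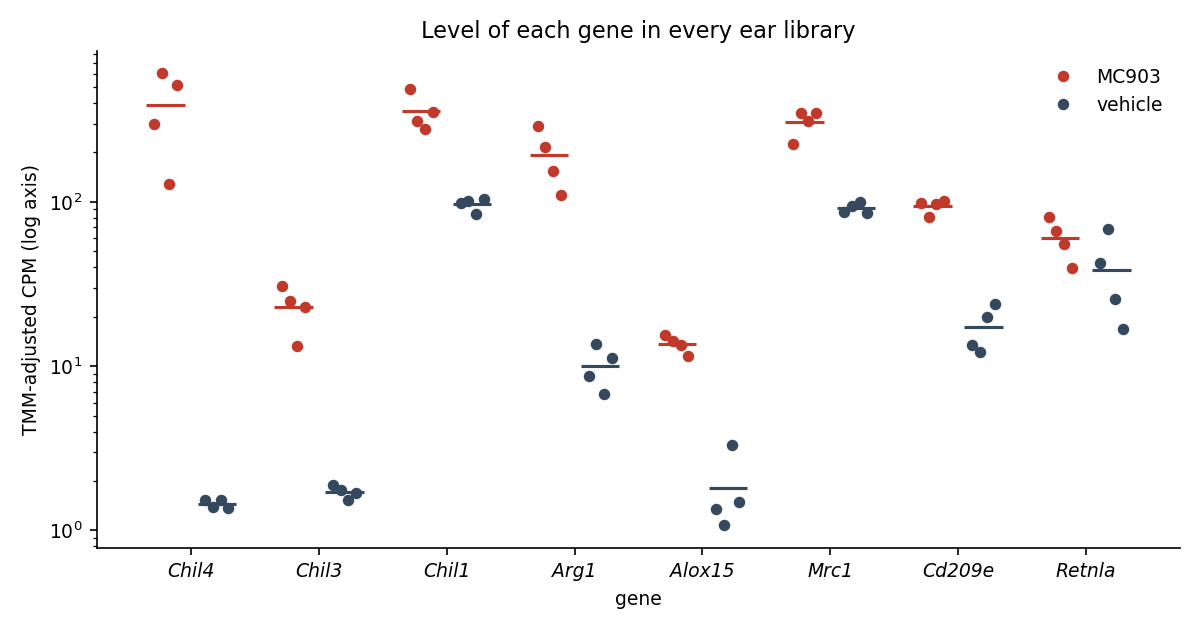
Level of each gene in every ear library, in CPM adjusted by TMM factors (log axis), with MC903 libraries in red at the left of each gene, vehicle libraries in dark blue at the right, and a line at each group's mean. The groups are separate for 7 genes, most widely for Chil4 (388 CPM in MC903 ears and 1.46 CPM in vehicle ears on average), and overlap for Retnla.

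Chil4 encodes a secreted chitinase-like protein also called Ym2, and Chil3 encodes its close relative Ym1, a product of mouse macrophages and neutrophils. In mm10 the genes lie near each other on the minus strand of chromosome 3, Chil4 (ENSMUSG00000063779) at chr3:106201490-106219507 and Chil3 (ENSMUSG00000040809) at chr3:106147554-106167564. The promoter windows of this pair are shown because the genes are near copies that moved by different amounts. Both are RefSeq sequences of GRCm38.p6, minus strand, written 5′ to 3′, of 300 bases each with 250 before the annotated start site. Capitals mark TTC and GAA with 3 bases between them, the palindrome bound by STAT factors, and TATAAA, the TATA box.
Chil4, chr3:106219430-106219729: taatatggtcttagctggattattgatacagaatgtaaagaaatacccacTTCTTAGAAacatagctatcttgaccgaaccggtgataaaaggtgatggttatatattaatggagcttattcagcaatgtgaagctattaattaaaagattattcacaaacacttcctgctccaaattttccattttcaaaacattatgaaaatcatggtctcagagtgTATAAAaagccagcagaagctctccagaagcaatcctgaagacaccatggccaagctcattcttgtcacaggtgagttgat
Chil3, chr3:106167515-106167814: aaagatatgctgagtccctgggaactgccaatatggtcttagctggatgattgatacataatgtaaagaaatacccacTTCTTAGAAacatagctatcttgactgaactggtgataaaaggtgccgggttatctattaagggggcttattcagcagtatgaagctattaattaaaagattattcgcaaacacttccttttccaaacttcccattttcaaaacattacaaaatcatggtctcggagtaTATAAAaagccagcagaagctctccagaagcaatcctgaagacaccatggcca
Aligned to each other, 251 of 271 bases of these windows were identical (92.6%). The same letters, TTCTTAGAA, stand 200 bases before the annotated start of Chil4 and 172 bases before that of Chil3, and TATAAA begins 31 bases before the start of Chil4 and 3 bases before that of Chil3. The motifs lie equally far apart in both windows, so the different distances follow from where each start is annotated. Over 32851 mouse promoters of the same length, searched on both strands, 8.30% held TTC and GAA at that spacing and 13.6% held TATAAA. A match describes letters and does not show binding.

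Chil4 rose the most of the list and stood second among all genes tested by log2 fold change. Its levels, in CPM (reads of the gene scaled by the library's total and TMM factor), were 298, 606, 128 and 518 CPM in MC903 replicates 1 to 4, against 1.53, 1.38, 1.54 and 1.37 CPM in vehicle replicates 1 to 4. The MC903 libraries differed among themselves by up to 4.74-fold, with replicate 3 lowest, and all of them lay far above the narrow vehicle range. The log2 fold change was 8.04 ± 0.51 (SE; edgeR adjusted p = 1.13e-06), and the mean of MC903 ears was 266-fold that of vehicle ears. The vehicle level rested on few reads: the 4 vehicle libraries held 93 Chil4 counts in all, 0.465% of the 20010 counts in MC903 libraries. Had 0.05% of each gene's summed reads crossed between libraries of the pool and been subtracted, the log2 fold change would be 8.85.

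Chil3 rose less. Its levels were 30.9, 25.1, 13.3 and 22.9 CPM in MC903 replicates 1 to 4, against 1.89, 1.77, 1.54 and 1.69 CPM in vehicle replicates 1 to 4. As with Chil4, MC903 replicate 3 was the lowest of its group and the groups did not overlap. The mean of MC903 ears was 13.4-fold that of vehicle ears, and the log2 fold change was 3.74 ± 0.26 (SE; edgeR adjusted p = 2.12e-06).

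The balance between the 2 genes therefore differed between the groups. Chil4 took 90.6%, 96.0%, 90.6% and 95.8% of the summed Chil3 and Chil4 counts in MC903 replicates 1 to 4, with exact (Clopper-Pearson) 95% intervals that reached from 89.3% to 96.5% over the 4 libraries. In vehicle replicates 1 to 4 it took 44.8%, 43.9%, 50% and 44.9%, with intervals that reached from 28.5% to 63.9% over the 4 libraries, since each held 41 to 58 reads of both genes. The narrowest distance between the groups, 90.6% against 50%, was wider than any spread within a group. The mean share was 93.3% ± 3.05 in MC903 ears and 45.9% ± 2.77 in vehicle ears (SD, n = 4 each), a difference of 47.3 percentage points (two-sided exact permutation p = 0.0286, the smallest that 4 against 4 libraries allow).

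**Figure D2:**
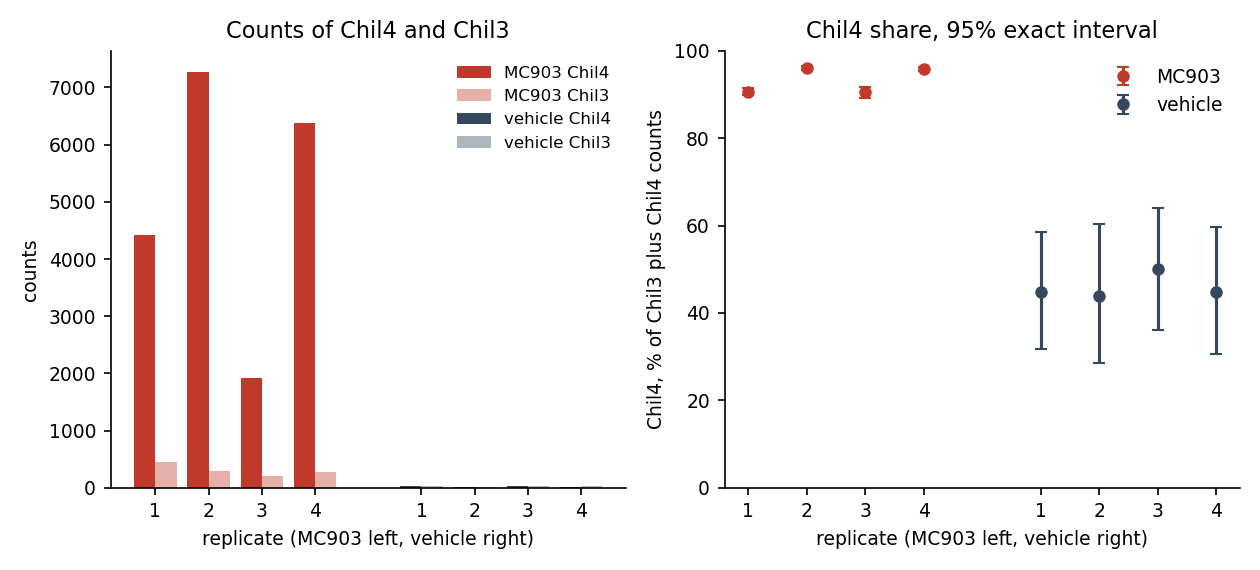
Left, counts of Chil4 (solid bars) and Chil3 (pale bars) in each library, MC903 in red and vehicle in dark blue; right, Chil4 as a percentage of both genes' counts with exact 95% intervals, which cover counting error only. Chil4 takes 90.6% to 96.0% in MC903 libraries and 43.9% to 50% in vehicle libraries.

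Reads of 50 bases cannot always separate these genes. Their longest transcripts are 1539 bases each, with 1452 of 1538 aligned bases identical (94.4%). Of all 50-base stretches of Chil3 transcripts, 16.9% also occur in Chil4 and 13.3% in the predicted gene Gm6522, and of Chil4 stretches 9.95% occur in Chil3 and 3.0% in Gm6522. How such reads were counted was not given in the sources used here, so the level of each gene and the share are uncertain to that extent. With the counts of both genes added, the log2 fold change was 7.01 ± 0.46 (SE; edgeR adjusted p = 1.53e-06). None of the other 6 genes shared a 50-base stretch with another gene.

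Chil1 encodes the chitinase-like protein BRP-39, the mouse counterpart of human YKL-40, and lies apart from that pair at chr1:134182176-134190181, plus strand (ENSMUSG00000064246). Its levels were 484, 312, 279 and 351 CPM in MC903 replicates 1 to 4, against 99.1, 101, 84.9 and 104 CPM in vehicle replicates 1 to 4. Every MC903 library was well above every vehicle library. Chil1 rose by 1.88 ± 0.18 on the log2 scale (SE; edgeR adjusted p = 1.86e-05).

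No other tested gene of the chitinase family was called higher with all libraries. Of 7 other members 6 were tested, 0 were higher and 2 were lower, against 21.3% and 20.2% of all genes tested. Their median log2 fold change was -0.43. Chit1, the chitotriosidase that cuts chitin, was at 83.6 ± 17.8 CPM in MC903 ears and 64.2 ± 6.20 CPM in vehicle ears (SD, n = 4 each; log2 fold change 0.38 ± 0.16, edgeR adjusted p = 0.0703). Ovgp1, oviductal glycoprotein, fell by 1.02 on the log2 scale (edgeR adjusted p = 0.0186). The other gene called lower, the acidic chitinase Chia1, was at 3.25 to 8.08 CPM in MC903 libraries, against 9616 CPM in vehicle replicate 2 and 4.25 to 10.0 CPM in the other vehicle libraries, and its log2 fold change without vehicle replicate 2 was -0.29 (edgeR adjusted p = 0.565). Single libraries changed these small counts: Ovgp1 was not called without vehicle replicate 1, Chit1 was called higher without MC903 replicate 4, and Chid1 was called higher without vehicle replicate 2.

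Arg1 encodes arginase 1, which splits arginine into ornithine and urea and is a classic marker of alternatively activated mouse macrophages (ENSMUSG00000019987, chr10:24915208-24927470, minus strand). Its levels were 289, 215, 153 and 111 CPM in MC903 replicates 1 to 4, against 8.66, 13.7, 6.74 and 11.2 CPM in vehicle replicates 1 to 4. The lowest MC903 library was several times the highest vehicle library. The log2 fold change was 4.26 ± 0.32 (SE; edgeR adjusted p = 3.67e-06), and the mean of MC903 ears was 19.0-fold that of vehicle ears.

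Nos2 encodes the inducible nitric oxide synthase, which competes for arginine and marks classical activation. It had 50, 37, 24 and 7 counts in MC903 replicates 1 to 4 and 10, 3, 4 and 4 counts in vehicle replicates 1 to 4, too few to pass the filter on low counts with all libraries. Leaving out 1 library at a time, it was tested and higher in 7 of the 8 fits, with log2 fold changes of 2.48 to 3.14 (edgeR adjusted p = 0.000283 to 0.0115). In these fits the filter asks for fewer libraries, and Nos2 met it mainly through MC903 libraries, where it was high. The fits share most of their libraries and are not separate support for a rise. The log2 ratio of Arg1 to Nos2 counts was 6.64 ± 0.61 in MC903 ears and 4.88 ± 0.82 in vehicle ears (SD, n = 4 each), a difference of 1.76 (two-sided exact permutation p = 0.0286, the smallest possible). Nos2 itself had 118 counts over the MC903 libraries and 21 over the vehicle libraries, with MC903 replicate 4 below vehicle replicate 1, and the balance lay further toward Arg1 in MC903 ears.

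Of 15 other tested genes of arginine and polyamine metabolism, 5 were higher and 2 lower, against 21.3% and 20.2% of all genes tested. Slc7a1, an arginine transporter, rose by 1.10 ± 0.11 on the log2 scale (SE; edgeR adjusted p = 1.62e-05), and Ass1, which makes the precursor of arginine, by 1.71 ± 0.18 (edgeR adjusted p = 2.70e-05). Arg2, the mitochondrial arginase, rose by 1.21 ± 0.33 (edgeR adjusted p = 0.0129). The transporter gene Slc7a2 fell by 0.93 (edgeR adjusted p = 0.000831). Sms, spermine synthase, fell by 0.71 and was called with all 8 libraries and without MC903 replicate 4, and lost the call without any other single library. Counts of this list ran from 4 to 7 higher and 1 to 3 lower when 1 library was left out, with 7 higher and 3 lower without MC903 replicate 4.

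Alox15 encodes a lipoxygenase that adds oxygen to arachidonic and linoleic acid, and interleukin 4 induces it in monocytes and macrophages (ENSMUSG00000018924, chr11:70344152-70352031, minus strand). Its levels were 15.4, 14.3, 13.5 and 11.5 CPM in MC903 replicates 1 to 4, against 1.35, 1.08, 3.31 and 1.5 CPM in vehicle replicates 1 to 4. The MC903 libraries were close together, and among vehicle libraries replicate 3 was highest but still far below them. Alox15 rose by 2.89 ± 0.30 on the log2 scale (SE; edgeR adjusted p = 2.58e-05).

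The rest of the lipoxygenase pathway was mixed. Of 9 other genes, all tested, 3 were higher and 2 lower, against 21.3% and 20.2% of all genes tested. Their median log2 fold change was 0.04. Alox8, a lipoxygenase of mouse skin, rose by 2.89 ± 0.34 (SE; edgeR adjusted p = 6.76e-05), as much as Alox15. Alox5ap, which presents arachidonic acid to the leukotriene-forming enzyme, rose by 1.4 ± 0.27 (edgeR adjusted p = 0.00164). Alox12, the platelet-type lipoxygenase, fell by 0.55 (edgeR adjusted p = 0.0068). Alox12e, the other gene called lower, lost the call without MC903 replicate 3 or 4 or vehicle replicate 2, 3 or 4, while Aloxe3 was also called lower without MC903 replicate 1.

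Mrc1 and Cd209e encode C-type lectins, receptors that bind sugars on microbes and on host glycoproteins. Mrc1, the macrophage mannose receptor (ENSMUSG00000026712, chr2:14229414-14332057, plus strand), was at 224, 346, 313 and 349 CPM in MC903 replicates 1 to 4, against 87.0, 94.8, 99.8 and 85.7 CPM in vehicle replicates 1 to 4. The groups were far apart, and MC903 replicate 1 was the lowest of its group. The log2 fold change was 1.74 ± 0.16 (SE; edgeR adjusted p = 1.39e-05).

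Cd209e is one of the mouse relatives of the human dendritic cell lectin DC-SIGN (ENSMUSG00000040197, chr8:3847965-3854309, minus strand). Its levels were 99.2, 80.9, 97.3 and 102 CPM in MC903 replicates 1 to 4, against 13.5, 12.2, 19.8 and 24.0 CPM in vehicle replicates 1 to 4. The groups were widely separated, and MC903 libraries were the more alike in proportion. Cd209e rose by 2.44 ± 0.21 on the log2 scale (SE; edgeR adjusted p = 7.14e-06).

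Of 19 other C-type lectins, all tested, 16 were higher and 0 lower, against 21.3% and 20.2% of all genes tested. Their median log2 fold change was 1.18 beside -0.03 over all genes tested. Cd209b, Cd209f and Ly75 lost the call without some single libraries, and 13 to 16 genes were higher when 1 library was left out. Without vehicle replicate 2, Cd209b and Ly75 were not called, and Cd209g was called higher. Within the Cd209 cluster, Cd209d rose by 1.83 ± 0.16 (SE; edgeR adjusted p = 9.04e-06), and Cd209a, a marker of dermal dendritic cells, rose by 0.65 ± 0.16 (edgeR adjusted p = 0.00832). Clec4n, the receptor dectin-2, rose by 2.99 ± 0.22 (edgeR adjusted p = 2.84e-06), Clec10a, the galactose-binding lectin MGL1, by 1.83 ± 0.15 (edgeR adjusted p = 6.40e-06), and Clec4a3 by 1.68 ± 0.14 (edgeR adjusted p = 6.32e-06). The mannose receptor relative Mrc2 had a log2 fold change of -0.41 ± 0.16 (edgeR adjusted p = 0.0657).

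Retnla encodes resistin-like alpha, a secreted protein of alternatively activated macrophages and of fat and epithelial cells (ENSMUSG00000061100, chr16:48842552-48844461, plus strand). Its levels were 80.8, 66.6, 55.7 and 39.8 CPM in MC903 replicates 1 to 4, against 42.4, 68.5, 25.7 and 16.7 CPM in vehicle replicates 1 to 4. The groups overlapped, and the vehicle libraries differed among themselves by 4.09-fold, with replicate 2 highest. The log2 fold change was 0.67 ± 0.37 (SE; edgeR adjusted p = 0.163), so Retnla was the gene of the list that did not pass. Without vehicle replicate 2, the library with salivary transcripts, the log2 fold change was 1.10 ± 0.31 (SE; edgeR adjusted p = 0.0188), and all 8 genes were called higher.

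The 2 other tested genes of the resistin family differed from each other. Retnlg, resistin-like gamma, a neutrophil transcript, was at 7.25 ± 1.45 CPM in MC903 ears and 0.879 ± 0.679 CPM in vehicle ears (SD, n = 4 each; log2 fold change 3.09 ± 0.43, edgeR adjusted p = 0.000213). Retn, the fat hormone resistin, was at 40.5 ± 11.7 CPM in MC903 ears and 61.0 ± 23.1 CPM in vehicle ears (log2 fold change -0.59 ± 0.27, edgeR adjusted p = 0.0977), and it was called lower without vehicle replicate 1, at -0.75. Retnlb had 2 counts over all 8 libraries together.

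The promoter windows of Retnla and Cd209e are shown because each holds TTC and GAA with 4 bases between them, the spacing that STAT6 prefers, while their genes differed in how far they moved. Both are RefSeq sequences of GRCm38.p6 of 300 bases, written 5′ to 3′ on the strand of the gene. Capitals mark this palindrome and, in Retnla, also ACTTCCTC, which is GAGGAAGT of the PU.1 core on the other strand, and TATAAA.
Retnla, chr16:48842359-48842658, plus strand: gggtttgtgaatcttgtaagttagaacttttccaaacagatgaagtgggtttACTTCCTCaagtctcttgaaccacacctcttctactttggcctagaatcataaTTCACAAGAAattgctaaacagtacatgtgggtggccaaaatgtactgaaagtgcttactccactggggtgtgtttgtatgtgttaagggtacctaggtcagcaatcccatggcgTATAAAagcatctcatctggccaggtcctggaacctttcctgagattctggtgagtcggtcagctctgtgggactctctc
Cd209e, chr8:3854237-3854536, minus strand: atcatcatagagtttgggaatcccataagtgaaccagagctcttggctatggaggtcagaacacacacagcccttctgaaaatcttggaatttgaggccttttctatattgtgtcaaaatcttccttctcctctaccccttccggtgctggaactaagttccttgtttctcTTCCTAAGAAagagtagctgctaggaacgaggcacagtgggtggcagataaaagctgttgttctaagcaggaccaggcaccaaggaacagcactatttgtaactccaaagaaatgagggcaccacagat
TTCACAAGAA begins 145 bases before the annotated start of Retnla, and TTCCTAAGAA begins 79 bases before that of Cd209e. Over all 32851 promoters, 6.95% held the palindrome with 4 free bases and 3.20% held GAGGAAGT. Of the 6 genes of the list with a window, 2 held the palindrome with 4 free bases and 2 others, Chil3 and Chil4, that with 3, so the 2 motifs did not overlap in any window. The windows of Chil1 and Mrc1 held neither of these, nor TATAAA. None of the 6 windows held TTGCGCAA, the C/EBP palindrome, or GGTTCA repeated after 3 bases, a pair of vitamin D receptor half-sites (0.183% and 0.00609% of all promoters).

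Set on a common scale of CPM per kilobase of gene length, the order of the genes differed between the groups. In MC903 ears Chil4 stood at 237 ± 132, Arg1 at 130 ± 52.4, Chil1 at 127 ± 32.0 and Retnla at 101 ± 29.0 CPM per kilobase (SD, n = 4 each), and the ranges of these 4 genes overlapped. Cd209e (52.6 ± 5.26) and Mrc1 (51.8 ± 9.79) followed with overlapping ranges, then Chil3 (14.1 ± 4.5) and Alox15 (5.57 ± 0.667), each apart from its neighbours.

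In vehicle ears Retnla led at 64.1 ± 38.0 CPM per kilobase (SD, n = 4 each), with a range of 28.0 to 114 that overlapped that of Chil1 (34.6 ± 2.98). Mrc1 (15.4 ± 1.12) lay above Cd209e (9.65 ± 3.08) without overlap, and Cd209e overlapped Arg1 (6.83 ± 2.05). Chil3 (1.05 ± 0.0882), Chil4 (0.893 ± 0.0561) and Alox15 (0.738 ± 0.414) were lowest and not separate from each other. Chil4 was thus among the 3 lowest of the 8 genes in vehicle ears and had the highest mean in MC903 ears.

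Macrophage transcripts themselves moved with the treatment. Of 12 macrophage markers, 11 were higher in MC903 ears and 1 lower, against 21.3% and 20.2% of all genes tested. The lower gene, Mertk, a receptor for the uptake of dying cells, fell by 0.70 (edgeR adjusted p = 0.000903). The summed level of the 12 markers was 1813 to 2900 CPM in MC903 libraries and 836 to 987 CPM in vehicle libraries, and no marker was at 0. C1qa, a complement gene of tissue macrophages, rose by 2.57 ± 0.17 (SE; edgeR adjusted p = 1.53e-06), Aif1 by 2.78 ± 0.21 (edgeR adjusted p = 3.43e-06) and Itgam by 1.80 ± 0.17 (edgeR adjusted p = 1.59e-05). Each gene of the list was therefore also set beside the mean log2 level of 8 of these markers in the same library (among them Csf1r, C1qa and Aif1). That mean was higher by 1.47 log2 units in MC903 ears (6.76 ± 0.20 and 5.28 ± 0.11 in vehicle ears, SD, n = 4 each).

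Relative to these markers, 5 genes remained higher without overlap of the groups. The share of all genes tested that separate on this scale was not computed, so this count has no background beside it. On the scale of log2(CPM + 0.5) minus the marker mean, Chil4 was at 1.62 ± 1.04 in MC903 ears and -4.32 ± 0.13 in vehicle ears (SD, n = 4 each), a difference of 5.93. The differences were 2.67 for Arg1, 1.87 for Chil3, 1.23 for Alox15 and 0.99 for Cd209e. Each of these 5 had a two-sided exact permutation p of 0.0286, the smallest possible, and 0.0457 after Benjamini-Hochberg adjustment over the 8 genes. The adjusted p of a gene depends on how many of the 8 genes reach that smallest p, so these calls do not stand gene by gene. They also changed with the markers. Relative to the 8 tested neutrophil markers, whose mean rose more although Mmp9 was not called, the differences were 5.01 for Chil4, 1.74 for Arg1 and 0.95 for Chil3. Those of Alox15 and Cd209e were 0.30 and 0.064. None passed after adjustment, and Chil1 (-0.55), Mrc1 (-0.68) and Retnla (-1.59) lay below 0. None passed either relative to Cd68, Lyz2, Itgam and Fcgr1, where the 5 differences were 0.94 to 5.88, although Chil4, Arg1 and Chil3 kept an exact permutation p of 0.0286 before adjustment with either set.

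For the other 3 genes the groups overlapped on this scale. Chil1 was at 1.69 ± 0.31 in MC903 ears and 1.32 ± 0.11 in vehicle ears (difference 0.37, exact permutation p = 0.0857, adjusted p = 0.114). Mrc1 was at 1.49 ± 0.46 in MC903 ears and 1.24 ± 0.19 in vehicle ears (difference 0.25, exact permutation p = 0.371). Retnla was at -0.87 ± 0.23 in MC903 ears and -0.20 ± 0.80 in vehicle ears (difference -0.67, exact permutation p = 0.171, adjusted p = 0.196).

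**Figure D3:**
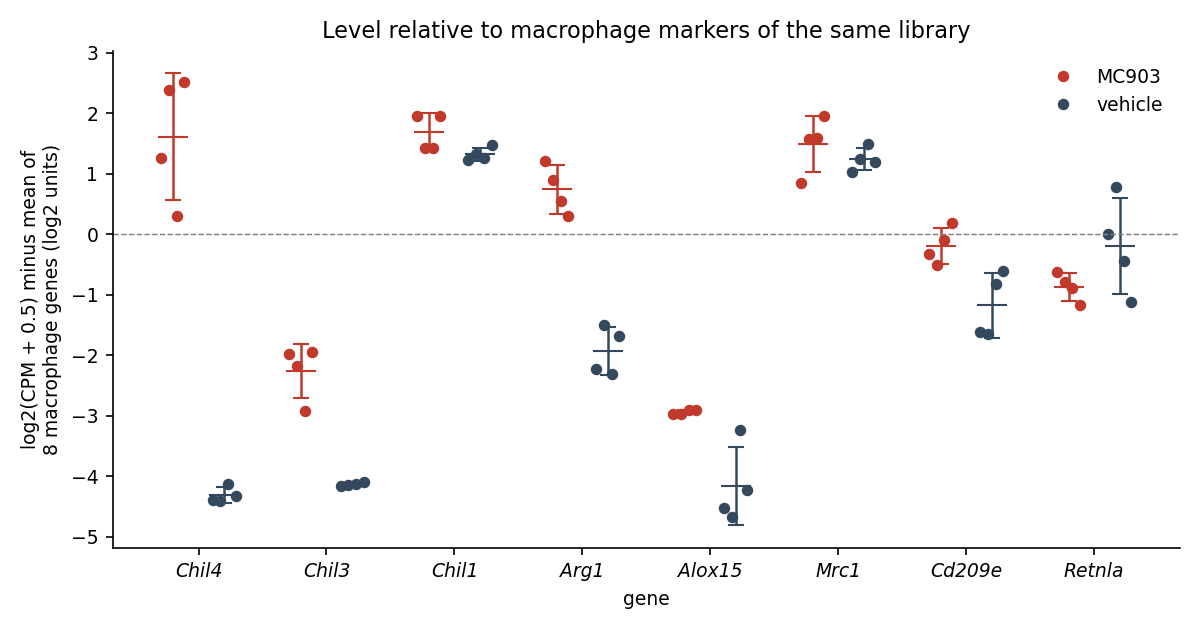
Level of each gene in every library as log2(CPM + 0.5) minus the mean of 8 macrophage markers in that library (log2 units), MC903 in red left of vehicle in dark blue, with the group mean and SD. With these markers Chil4, Chil3, Arg1, Alox15 and Cd209e are separate between the groups, whereas Chil1, Mrc1 and Retnla overlap.

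**Figure D4:**
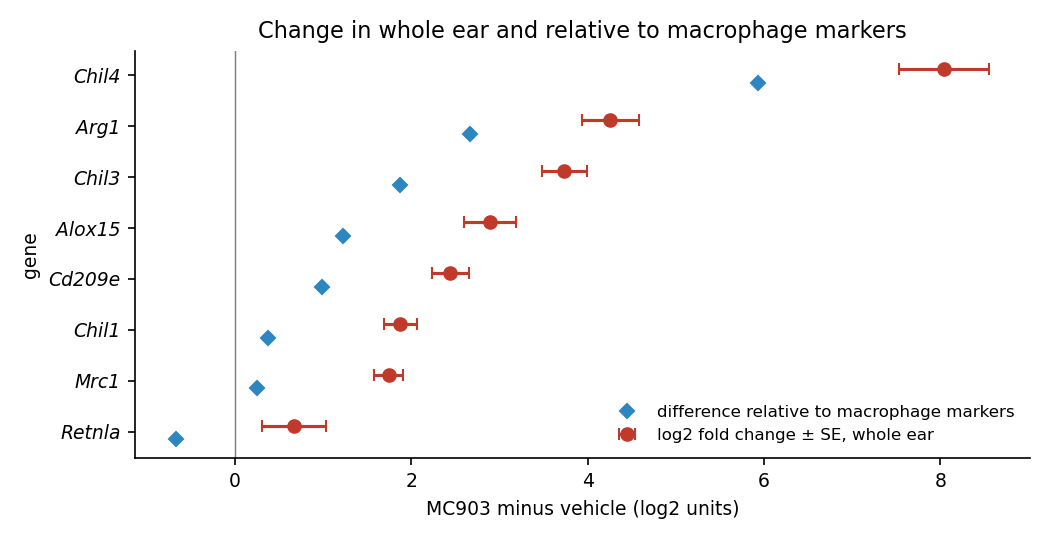
Log2 fold change with its SE in whole ear (red circles) and difference relative to the macrophage markers (blue diamonds) for each gene, both MC903 minus vehicle in log2 units. The diamond of Chil4 stays at 5.93, those of Chil1 and Mrc1 fall to 0.37 and 0.25, and that of Retnla lies below 0 at -0.67.

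Further genes linked to alternative activation rose with the list. Of 15 such genes, all tested, 13 were higher and 0 lower, against 21.3% and 20.2% of all genes tested. Their median log2 fold change was 1.56. Of the 15, 3 (Clec10a, Mgl2 and Clec7a) were also counted among the C-type lectins. Ccl22 and Tgm2 lost the call without some single libraries, and 11 to 13 genes were higher when 1 library was left out. Pdcd1lg2, which encodes the checkpoint ligand PD-L2, rose by 3.78 ± 0.29 (SE; edgeR adjusted p = 3.43e-06), and the scavenger receptor Msr1 by 1.92 ± 0.15 (edgeR adjusted p = 3.81e-06). Cd163, the hemoglobin scavenger receptor, was at 110 ± 18.5 CPM in MC903 ears and 55.4 ± 4.13 CPM in vehicle ears (SD, n = 4 each; log2 fold change 0.99 ± 0.14, edgeR adjusted p = 0.000235). The lipid receptor Cd36 (-0.65 ± 0.29, edgeR adjusted p = 0.0898) and F13a1 (0.10 ± 0.23, edgeR adjusted p = 0.761) did not pass, and Cd36 was called lower without MC903 replicate 4, at -1.08.

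The cytokines and receptor of the pathway were also measured. Il4 was at 8.94 ± 2.56 CPM in MC903 ears and 1.26 ± 0.18 CPM in vehicle ears (SD, n = 4 each), a log2 fold change of 2.82 ± 0.24 (edgeR adjusted p = 7.34e-06). Il4ra rose by 2.35 ± 0.14 (edgeR adjusted p = 6.61e-07) and Il2rg, the common gamma chain, by 1.72 ± 0.18 (edgeR adjusted p = 3.42e-05). Il13 had 12, 11, 13 and 7 counts in MC903 replicates 1 to 4 and 3, 3, 1 and 1 counts in vehicle replicates 1 to 4, and did not pass the filter with all libraries. It passed and was called higher without MC903 replicate 4 or any 1 vehicle library, with log2 fold changes of 2.31 to 2.89 (edgeR adjusted p = 0.00119 to 0.00443). There Il13 met the filter through its MC903 libraries alone, so these overlapping fits are not separate support for a rise.

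Stat6 differed little. It was at 114 ± 9.68 CPM in MC903 ears and 90.2 ± 7.06 CPM in vehicle ears (log2 fold change 0.34 ± 0.12, edgeR adjusted p = 0.0364), and it lost the call when any library other than MC903 replicate 1 or 2 was left out. Over the 16 tested genes of interleukin 4 and 13 signalling, 9 were higher and 2 lower, against 21.3% and 20.2% of all genes tested. The 2 lower genes were Egr2 (-0.57 ± 0.16, edgeR adjusted p = 0.0155) and Pparg (-0.99 ± 0.28, edgeR adjusted p = 0.0153), both transcription factors of alternative activation, and neither was called without MC903 replicate 3.

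Genes of classical, interferon-driven activation rose as well. All 11 tested of 14 were higher, against 21.3% of all genes tested. Their median log2 fold change was 2.83, above the median of 2.67 for the 8 genes and 1.56 for the further alternative activation genes. The chemokine genes Cxcl9 (4.53 ± 0.20, edgeR adjusted p = 1.04e-07) and Cxcl10 (4.72 ± 0.35, edgeR adjusted p = 3.05e-06) and the prostaglandin synthase gene Ptgs2 (5.42 ± 0.28, edgeR adjusted p = 2.45e-07) had the smallest adjusted p. The difference between the lists was not tested.

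**Figure D5:**
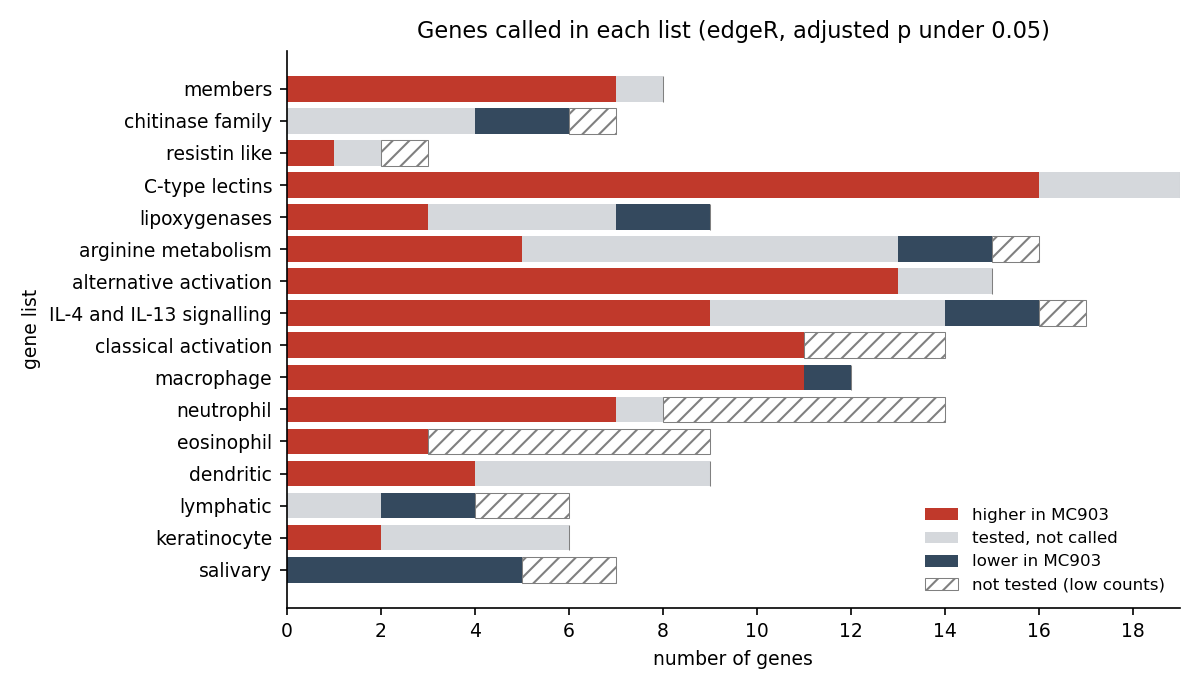
Number of genes in each list that were higher in MC903 ears (red), tested but not called (grey), lower in MC903 ears (dark blue) or not tested for low counts (hatched). The 8 genes of the list, the C-type lectins, the alternative and classical activation genes and the macrophage markers are mostly red, and 4 of the 5 salivary genes called lower, all but Amy1, lose the call without vehicle replicate 2.

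Markers of other cells that can make these transcripts moved too. Of 14 neutrophil markers 8 were tested, and 7 were higher and 0 lower, against 21.3% and 20.2% of all genes tested. Mmp9 was not called (0.13 ± 0.28, edgeR adjusted p = 0.725). Some markers were too low to test. Over MC903 and vehicle libraries Camp had 12 and 13 counts and Elane 6 and 12, while Ngp had 49 and 10 and Ltf 25 and 8. The summed level of the 14 markers was 84.4 to 125 CPM in MC903 libraries and 16.3 to 24.1 CPM in vehicle libraries. Cxcr2 alone averaged 54.6 CPM in MC903 ears and 7.72 CPM in vehicle ears. The defining marker Ly6g had 4, 1, 1 and 0 counts in MC903 libraries and 0 in all vehicle libraries. The receptor Cxcr2 rose by 2.82 ± 0.15 (SE; edgeR adjusted p = 3.75e-07), the collagenase Mmp8 by 3.25 ± 0.26 (edgeR adjusted p = 5.53e-06) and the formyl peptide receptor Fpr1 by 4.39 ± 0.41 (edgeR adjusted p = 1.37e-05). Mpo, too low to test with all libraries, was called lower without MC903 replicate 1 or vehicle replicate 2, where it met the filter through vehicle libraries alone. Of 9 eosinophil markers 3 were tested and all 3 were higher: Ear2 (1.98 ± 0.20, edgeR adjusted p = 2.34e-05), Prg2 (4.28 ± 0.54, edgeR adjusted p = 0.000111) and Ccr3 (2.66 ± 0.42, edgeR adjusted p = 0.000467). Without the filter on low counts 6 were higher. The eosinophil sum was 26.0 to 34.0 CPM in MC903 libraries and 5.07 to 8.99 CPM in vehicle libraries. It came mostly from Ear2, at 24.6 CPM in MC903 ears and 6.25 CPM in vehicle ears on average. The granule gene Epx had 0, 0, 1 and 1 counts in MC903 libraries and 0 in all vehicle libraries.

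Dendritic, keratinocyte and lymphatic markers were mixed. Of 9 dendritic markers, all tested, 4 were higher and 0 lower, against 21.3% and 20.2% of all genes tested. The calls were led by Ccr7 (2.21 ± 0.29, edgeR adjusted p = 0.000154), Itgax (1.82 ± 0.26, edgeR adjusted p = 0.000243) and Batf3 (1.59 ± 0.29, edgeR adjusted p = 0.00114). Cd207, the Langerhans cell marker, was called lower without MC903 replicate 3 or vehicle replicate 4. The dendritic sum was 121 to 166 CPM in MC903 libraries and 80.9 to 111 CPM in vehicle libraries. Of 6 keratinocyte markers, Krt1 (3.19 ± 0.23, edgeR adjusted p = 2.75e-06) and Krt14 (1.87 ± 0.19, edgeR adjusted p = 2.71e-05) were higher and Krt5 was not called (0.34 ± 0.16, edgeR adjusted p = 0.101). Krt10 (-0.27), Trp63 (-0.34) and Dsg1a (-0.59) were not called either, and their log2 fold changes were negative. The keratinocyte sum was 12510 to 13923 CPM in MC903 libraries and 6337 to 7308 CPM in vehicle libraries. Its rise came mostly from Krt14, at 7077 CPM in MC903 ears and 1939 CPM in vehicle ears on average, and Krt1, at 1848 and 202 CPM.

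Lymphatic vessels also carry Mrc1. Of 6 lymphatic markers 4 were tested, and Reln (-1.21 ± 0.18, edgeR adjusted p = 0.000366) and Prox1 (-0.94 ± 0.23, edgeR adjusted p = 0.00791) were lower, while Lyve1 did not pass (-0.03 ± 0.17, edgeR adjusted p = 0.917) and Pdpn and Ccl21a were listed at 0 in every library. Flt4 (-0.51 ± 0.20, edgeR adjusted p = 0.0626) was called lower without MC903 replicate 1. The lymphatic sum was 61.1 to 78.5 CPM in MC903 libraries and 74.4 to 102 CPM in vehicle libraries. The summed level of the 8 genes was 1053 to 1665 CPM in MC903 libraries and 243 to 294 CPM in vehicle libraries. The part of each cell type in the levels of the 8 genes was not tested.

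The genes with the most similar profile were sought among 13060 others by the root mean square difference in log2 CPM over the 8 libraries, each profile centred on its vehicle mean. Arg1 was nearest to the chemokine gene Ccl8, at 0.192 log2 units, and to the antibody receptor gene Fcgr4, at 0.196. Chil1 was nearest to Crabp2, a retinoic acid carrier, at 0.128 and to Itpk1 at 0.132, and Mrc1 to Parp14 at 0.134 and Cenpe at 0.143. Cd209e was nearest to Fetub at 0.260 and Stac2 at 0.284 and Chil3 to the coagulation factor gene F7 at 0.308 and Klk9 at 0.335. For Alox15, Tmprss11g was among the 2 nearest, at 0.346. Chil4 had no comparably close match. Its nearest genes were Akr1d1, a steroid reductase, at 0.605, and Cyp24a1, the enzyme that degrades vitamin D, at 0.684. With profiles centred on the vehicle mean, the distance depends largely on the size of the change. The log2 fold changes were 7.50 for Akr1d1, 7.67 for Cyp24a1 and 8.04 for Chil4. Whether such genes share regulation was not tested. No 2 of the 7 genes shared a nearest gene.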

How the data were processed

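Total RNA of bulk ear skin was depleted of ribosomal RNA, primed with random hexamers and sequenced as single reads of 50 bases, per the labels' protocols, which name no step that marks strand. The authors deposited a table per library that holds the count of reads for each Ensembl gene with its CPM and RPKM. The deposited CPM and RPKM values equalled those recomputed from the deposited counts and gene lengths to within 2.33e-10 and 5.82e-11, and only the counts were used. Per the submitters' processing notes, reads were handled with STAR 2.0.4b, Subread and featureCounts 1.4.5 and the build was mm10. The sources used here do not give the annotation release, the strand setting or how multiply mapped reads were treated.

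Of 41388 identifiers, 40254 were given a symbol from a table of gene names, and all 8 genes matched. Library totals ran from 12310466 to 16837221 counts, so 3 counts, taken as the detection floor, equalled 0.178 to 0.244 CPM. PCR reads carry no molecular identifier here and are not independent molecules, so floors and intervals describe counting error alone. Replicates differed by more than sampling noise (lowest chi-square per degree of freedom 11.05) and were kept apart.

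Counts of all 8 libraries passed through filterByExpr and TMM scaling to the quasi-likelihood F-test of edgeR 4.0.16 in R 4.3.3, with group as the single covariate. P-values were adjusted by the Benjamini-Hochberg method across the 16105 genes that entered the test (threshold 0.05). CPM values in the results are TMM-adjusted, and the SE is the log2 fold change divided by the square root of F. The fit was tested on simulated data before use. Exact permutation tests over the 8 libraries and intervals used scipy 1.17.1. Promoter windows came from RefSeq (GRCm38.p6), and shared 50-base stretches were counted over GENCODE M21 transcripts. In the deposited gene coordinates no exon of another gene overlapped an exon of the 8 genes.

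The 8 genes and the 15 other lists were chosen with earlier results of these data known. All 8 were named, with the 3 smallest adjusted p of each other list, preset genes (Il4, Il13, Il4ra, Stat6, Nos2, Arg2, Retnlg, Cd163 and Cd209a), and for each called gene the 2 most alike profiles among genes whose average log2 CPM was 1 or more. Other genes, such as Cd209d, Mrc2, Alox12e, Sms, Egr2, Pparg, Mertk, Cd36 and F13a1, were named after their values were seen. Some genes that the rule or the marker lists hold are not reported here.

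Alternatives were RLE and upper quartile factors, library sizes alone, no filter and a filter of at least 1 CPM in 4 libraries, DESeq2 1.42.0, limma-voom (limma 3.58.1), the replicate number as a block, removal of mitochondrial and ribosomal RNA genes, subtraction of crossed reads, other pseudocounts and markers, and leaving out each library in turn.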

Additional observations from a re-analysis of the deposited data

Results flagged for a closer look

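In 118 comparisons within a group of 4 libraries, 12 values stood far from the other 3 by Dixon's test at the 95% level, where chance flags about 1 in 20 groups, or 5.9 here. Of the 8 genes' own readouts, the share of Chil4 in the counts of Chil3 and Chil4 was 50% in vehicle replicate 3, against 43.9% to 44.9% in the other vehicle libraries. Vehicle replicate 2 held 5 of the values: 35110 CPM of Amy1 (45.3 to 66.7 in the other vehicle libraries), 9616 CPM of Chia1 (4.25 to 10.0), 8290 CPM of Pip (2.80 to 11.4), 4020 CPM of Dcpp1 (1.09 to 5.30) and 277 CPM of Krt1 (173 to 180).

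Among genes set beside the list, MC903 replicate 2 had 12.7 CPM of Il4, against 7.29 to 8.11 CPM in the other MC903 libraries. Ass1 was at 38.6 CPM in MC903 replicate 4, against 61.3 to 64.5 CPM in the others. Alox8 was at 11.7 CPM in vehicle replicate 4, against 4.11 to 4.69 CPM in the others. Cd163 was at 49.2 CPM in vehicle replicate 1, against 57.0 to 58.2 CPM, and Nos2 at 0.589 CPM there, against 0.229 to 0.250 CPM. Reln was at 25.0 CPM in vehicle replicate 3, against 19.9 to 20.7 CPM in the other vehicle libraries.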

How the results depend on the processing

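Chil4, Chil3, Chil1, Arg1, Alox15, Mrc1 and Cd209e stayed higher and called in every alternative fit. Without 1 library at a time their log2 fold changes ran from 7.75 to 8.34, 3.57 to 3.93, 1.70 to 1.98, 4.00 to 4.45, 2.72 to 3.36, 1.68 to 1.88 and 2.30 to 2.64 in that order. Retnla ran from 0.42 to 1.10 and was called without vehicle replicate 2. It was also called with the replicate block, at 0.81 (adjusted p = 0.0144). The replicate numbers did not pair the libraries (correlations of same-numbered deviations 0.057, -0.14, -0.12 and -0.20), and the replicate block gave 5705 called genes beside 6682. All alternatives gave 5389 (library sizes alone) to 7072 called genes, 43.1% to 54.2% of them higher in the fits on all libraries without the block, and no scaling moved the median of all genes by more than 0.08. Over the other lists, 10 to 18 distinct genes were lower when 1 library was left out (16 with all), with 10 without vehicle replicate 2, and 74 to 80 were higher (79 with all).

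Leaving out 1 library makes 0.0571 the smallest exact p, so no permutation result could pass. The differences were then 5.63 to 6.37 for Chil4 relative to the macrophage markers, 2.51 to 2.81 for Arg1, 1.77 to 2.09 for Chil3, 1.06 to 1.54 for Alox15 and 0.83 to 1.17 for Cd209e, 46.4 to 48.7 points for the Chil4 share and 1.41 to 2.03 for the ratio of Arg1 to Nos2. With Cd68, Lyz2, Itgam and Fcgr1 as the markers they were 5.88, 2.62, 1.83, 1.18 and 0.94 for Chil4, Arg1, Chil3, Alox15 and Cd209e, and with the 8 tested neutrophil markers 5.01, 1.74, 0.95, 0.30 and 0.064, none past the adjusted threshold. Against the neutrophil markers Chil1 (-0.55), Mrc1 (-0.68) and Retnla (-1.59) lay below 0, and the cause was not tested. Depth limits Chil4, Chil3 and Nos2 in vehicle ears, with 18 to 32 counts of either chitinase-like gene and 3 to 10 of Nos2 per library.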
